A study of Mus musculus with 12 samples.

Results

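The 9 genes described here, *Cldn1*, *Cldn5*, *Slc2a1*, *Ocln*, *Tjp1*, *Cdh5*, *Pecam1*, *Kdr* and *Abcb1a*, are tight junction, endothelial and transport genes of the blood-nerve barrier. They were taken by symbol from the 43432 genes of a count table of mouse sciatic nerve, and all 9 were found. No cut on measured values was used, but the 9 were chosen with earlier results of these data known. The nerves came from 12 mice aged 30 days in 3 groups of 4 (3 males and 1 female each), and each mouse gave 1 nerve and 1 library. WT control mice (*Mtmr2* wt/wt) and *Mtmr2* KO mice (*Mtmr2* -/-) were labelled as having no treatment. The third group were *Mtmr2* -/- mice given niacin, by intraperitoneal injection at 120 mg/kg from day 10 to day 21 and then as slow-release granules by gavage until day 30. The mutant line was made on a 129/SvPas background and models CMT4B1, a demyelinating neuropathy, and it lacks a lipid phosphatase in every cell, so endothelial and perineurial cells carry the deletion as Schwann cells do. No WT mice given niacin were among the 12 libraries, so the effect of niacin without the deletion was not measured. The labels name no vehicle for the mice without niacin, whereas the paper describes the KO mice of the niacin comparison as vehicle treated.

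The blood-nerve barrier has a vascular and a perineurial part. Endothelial cells of endoneurial vessels are joined by tight junctions and carry transporters that admit glucose and expel drugs, and the perineurium, a sleeve of flattened cells around each fascicle, seals the fascicle with tight junctions of its own. Claudin-5 is the main claudin of the vascular part and claudin-1 that of the perineurial part, and GLUT1, the product of *Slc2a1*, is found in both. A nerve library mixes all these cells with Schwann cells, fibroblasts and epineurial fat, and fewer cells of a type cannot be told apart from less RNA per cell.

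Library totals ranged from 20763951 to 33191106 counts, and levels are given as CPM, counts scaled to a common library total. *Pmp22*, a myelin gene of Schwann cells, was at 22580 to 34859 CPM across the libraries. *Mtmr2* itself was at 128 to 161 CPM in the WT control libraries and at 66.8 to 73.5 CPM in the niacin libraries. The *Mtmr2* KO libraries 4501, 4502 and 4504 had 71.6, 84.7 and 69.5 CPM, but the library labelled *Mtmr2* KO 4503 had 143 CPM, within the WT control range. A count per gene covers the whole gene and does not show which exons were read, and 4503 was kept under its label, with fits, list counts and correlations also given without it. Library 4502 stood apart in another way. Its genes tended to be lower the higher the GC content of their longest transcript (Spearman's rho across 17142 genes -0.36, a description across genes), as did those of the 4 niacin libraries (-0.30 to -0.14), whereas the other 7 libraries had values of 0.17 to 0.31. Niacin libraries 4506 and 4507 carried skeletal muscle transcripts, with *Acta1*, the muscle actin gene, at 475 and 401 CPM against at most 20.5 CPM elsewhere.

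The promoters of the claudin genes are shown because *Cldn1* and *Cldn5* varied in opposite directions across these libraries. They are the 250 bases before the RefSeq transcription start in GRCm38.p6, 5′ to 3′ on the gene's strand, *Cldn1* from chr16:26371840-26372089 on the minus strand and *Cldn5* from chr16:18776597-18776846 on the plus strand. Capitals mark the GC box GGGCGG, searched on both strands.

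Cldn1: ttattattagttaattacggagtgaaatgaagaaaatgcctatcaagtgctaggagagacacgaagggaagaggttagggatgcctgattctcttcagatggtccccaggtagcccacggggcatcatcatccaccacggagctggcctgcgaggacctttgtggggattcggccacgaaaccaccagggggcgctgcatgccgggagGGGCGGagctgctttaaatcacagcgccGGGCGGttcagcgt
Cldn5: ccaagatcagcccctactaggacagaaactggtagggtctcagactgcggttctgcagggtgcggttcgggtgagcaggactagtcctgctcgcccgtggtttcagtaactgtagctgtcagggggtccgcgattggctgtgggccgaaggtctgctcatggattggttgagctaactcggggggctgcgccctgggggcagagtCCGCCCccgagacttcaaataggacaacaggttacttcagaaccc

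*Cldn1* has 2 GC boxes, starting 42 and 14 bases before the start site, and *Cldn5* has 1 on the opposite strand, starting 45 bases before it. The GC box was found in 32.7% of the 32851 promoters of the RefSeq table, and neither window held the ETS motif letters AGGAAG (29.5% of promoters) or CGGAAG (13.6%) or the SOX motif letters ACAAT (27.7%). The motifs do not overlap one another in these windows. Of the 9 genes, 7 had an entry in that table.

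Per kilobase of the longest annotated transcript, the level scale on which genes can be compared, *Slc2a1* was the most abundant of the 9 in WT control nerves at 68.8 ± 8.75 CPM per kb (SD, n = 4). It was followed by *Cldn5* at 60.9 ± 8.75 and *Cldn1* at 55.5 ± 9.33 CPM per kb, and then by *Pecam1* at 42.4 ± 4.69 and *Tjp1* at 39.9 ± 6.72 CPM per kb. Down to *Tjp1*, each gene overlapped its neighbour in the order within 1 SD of both means. *Cdh5* (27.2 ± 2.69), *Abcb1a* (19.2 ± 2.34) and *Kdr* (12.1 ± 1.02 CPM per kb) lay further down, each apart from its neighbours by more than that. *Ocln* was far below the rest at 1.97 ± 0.37 CPM per kb, and its counts, at least 105 in every library, still exceeded the filter on low counts. All 9 genes passed that filter. The genes map in GRCm38 to chromosome 16 (*Cldn1*, bases 26356642 to 26371841, and *Cldn5*, bases 18776847 to 18778262), 4 (*Slc2a1*, 119108711 to 119137983), 13 (*Ocln*, 100496507 to 100552718), 7 (*Tjp1*, 65296165 to 65527781), 8 (*Cdh5*, 104101625 to 104144511), 11 (*Pecam1*, 106654217 to 106750628) and 5 (*Kdr*, 75932827 to 75978458, and *Abcb1a*, 8660077 to 8748575), and each value counts reads over the whole gene. *Slc2a1* and *Abcb1a* each overlap an annotated antisense gene. The one at *Slc2a1* had 249 counts in all libraries together against 70314 for *Slc2a1*, and for the one at *Abcb1a* no counts were analysed here. Whether the counting used strand is not given in these sources.

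Among the tight junction genes, *Cldn5* showed the widest spread. It was at 76.5, 75.4, 91.6 and 101 CPM in the WT control libraries, at 92.2, 21.3, 154 and 75.3 CPM in *Mtmr2* KO libraries 4501 to 4504, and at 25.2, 44.2, 49.9 and 24.9 CPM in niacin libraries 4505 to 4508. All niacin libraries were therefore below all WT control libraries, and the KO libraries spanned 7.26-fold, with 4502 below and 4503 above every other library. *Cldn1* was at 203, 249, 275 and 193 CPM in WT control, 210, 436, 154 and 167 CPM in *Mtmr2* KO and 273, 224, 256 and 231 CPM in niacin nerves. Here the same 2 libraries changed places, 4502 being the highest and 4503 the lowest of all 12, and the groups overlapped. *Ocln*, the gene of the tight junction protein occludin, was at 7.56, 6.61, 10.1 and 7.58 CPM in WT control, 7.28, 10.9, 5.70 and 5.05 CPM in *Mtmr2* KO and 11.1, 9.71, 10.4 and 8.66 CPM in niacin nerves. It had its highest KO value in 4502, like *Cldn1*, and its groups overlapped. *Tjp1*, the gene of ZO-1, a scaffold that ties claudins to actin, was at 298, 310, 306 and 211 CPM in WT control, 331, 244, 340 and 264 CPM in *Mtmr2* KO and 199, 248, 203 and 159 CPM in niacin nerves. The niacin values were mostly below the others, with overlap through WT control library 4500 and KO library 4502.

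Among the endothelial genes, *Cdh5*, the gene of VE-cadherin of endothelial adherens junctions, was at 113, 112, 117 and 92.8 CPM in WT control nerves. It was at 92.6, 24.6, 105 and 54.6 CPM in *Mtmr2* KO and at 40.3, 72.1, 50.3 and 25.9 CPM in niacin nerves. All niacin libraries lay below all WT control libraries, and the KO libraries reached from the lowest niacin level to the WT level. *Pecam1*, the gene of the adhesion molecule CD31, was at 128, 139, 152 and 165 CPM in WT control, 128, 74.8, 185 and 68.7 CPM in *Mtmr2* KO and 73.8, 113, 131 and 92.6 CPM in niacin nerves, with overlap between all groups. *Kdr*, the gene of the main VEGF receptor, was at 78.5, 71.4, 72.6 and 63.8 CPM in WT control, 59.1, 41.8, 53.8 and 53.2 CPM in *Mtmr2* KO and 50.7, 64.9, 53.6 and 41.2 CPM in niacin nerves. It was the one member for which every KO library was below every WT control library.

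Both transport genes had overlapping groups. *Slc2a1*, which encodes the glucose transporter GLUT1, was at 212, 228, 262 and 195 CPM in WT control, 229, 125, 442 and 252 CPM in *Mtmr2* KO and 178, 230, 213 and 139 CPM in niacin nerves. *Abcb1a*, which encodes the efflux pump P-glycoprotein, was at 93.1, 104, 106 and 80.5 CPM in WT control, 97.6, 63.8, 135 and 107 CPM in *Mtmr2* KO and 73.8, 96.3, 77.1 and 61.4 CPM in niacin nerves. For both, 4503 was the highest and 4502 the lowest of the KO libraries.

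**Figure D1:**
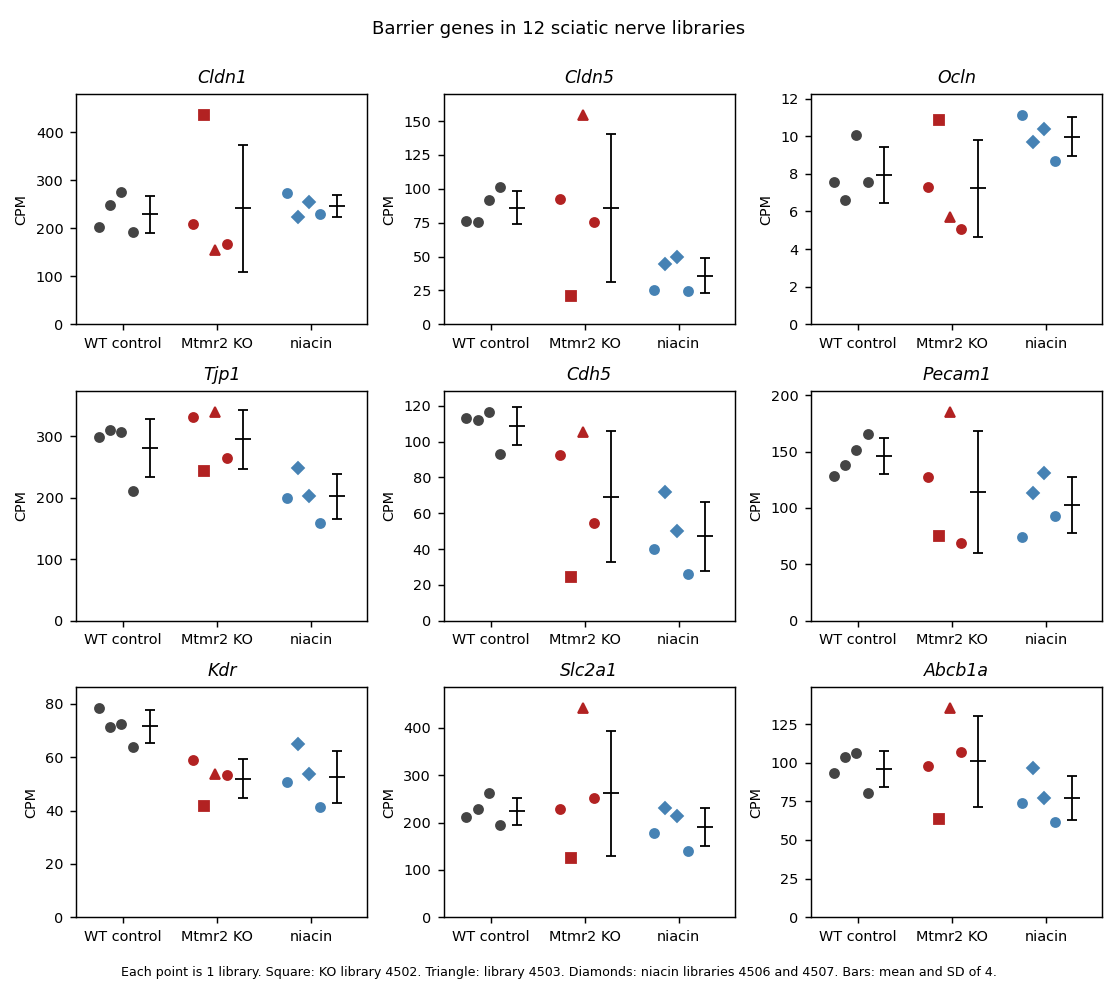
CPM of the 9 barrier genes in each of the 12 libraries (y axes, linear, from 0) by group (x axes), with the mean and SD of 4 libraries as bars. KO library 4502 (square) is lowest of the KO libraries for 6 genes and highest for *Cldn1* and *Ocln*, and library 4503 (triangle) is highest for 6.

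The first comparison asked whether loss of *Mtmr2* altered the barrier genes. None of the 9 was called in *Mtmr2* KO versus WT control nerves, against 46 of 17257 genes tested, 0.267%, by the quasi-likelihood test of edgeR at a Benjamini-Hochberg adjusted p under 0.05. At an unadjusted p under 0.05 edgeR had 1 member, *Kdr*, against 17.2% of all genes, and DESeq2 on all 12 libraries and limma-voom also called no member, against 3.77% and 0.626% of all genes. Without 4503, edgeR and DESeq2 again called no member, against 0.0344% and 4.62% of all genes. Limma-voom then called *Cdh5* (log2 fold change -0.96, adjusted p = 0.0280), *Pecam1* (-0.92, adjusted p = 0.0146) and *Kdr* (-0.44, adjusted p = 0.0387), against 5.97%. *Kdr* had a mean of 52.0 ± 7.28 CPM (SD, n = 4) in KO against 71.6 ± 6.04 CPM in WT control nerves, a log2 fold change of -0.46 (SE 0.15, edgeR adjusted p = 0.155). Its exact permutation p was 0.0286, the smallest that 4 against 4 libraries can give, and the groups of 5.46% of all genes tested were separate in the same direction. Without 4502 or without 4503 the log2 fold change of *Kdr* was -0.37 or -0.48 (edgeR adjusted p = 0.223 or 0.168). The log2 fold changes of *Cdh5* (-0.65, SE 0.37, edgeR adjusted p = 0.381) and *Pecam1* (-0.35, SE 0.28, adjusted p = 0.528) were also below 0. The other 6 members had log2 fold changes between -0.14 and 0.22, with edgeR adjusted p of 0.720 or more. The sign for *Cldn1*, *Cldn5*, *Slc2a1*, *Tjp1* and *Abcb1a* depended on single libraries. *Cldn5*, for example, had a log2 fold change of -0.01 with all libraries, 0.31 without 4502 and -0.45 without 4503. *Cldn1* had 0.07 with all libraries, -0.38 without 4502 and 0.23 without 4503.

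The second comparison asked what niacin altered in *Mtmr2* KO nerves. None of the 9 was called in niacin versus *Mtmr2* KO nerves, against 246 genes, 1.43% of those tested, and 2 (*Cldn5* and *Tjp1*) had an unadjusted p under 0.05 against 20.1% of all genes (edgeR). *Cldn5* had a mean of 36.0 ± 12.9 CPM (SD, n = 4) in niacin against 85.8 ± 54.8 CPM in KO nerves, a log2 fold change of -1.25 (SE 0.42, edgeR adjusted p = 0.130). It was called with DESeq2 on all 12 libraries (adjusted p = 0.0364) and with limma-voom (adjusted p = 0.0458), which called 6.42% and 11.6% of all genes. Without 4503 it was not called with DESeq2 (-0.81, adjusted p = 0.474), which called 2.88% of all genes and no member, and with limma-voom it was called (-0.84, adjusted p = 0.0470) with *Ocln* (0.84, adjusted p = 0.0269), against 12.6% of all genes. *Tjp1* had a log2 fold change of -0.55 (SE 0.18, edgeR adjusted p = 0.122).

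The values of this comparison depended on KO libraries 4502 and 4503. Without 4502, edgeR called 7 of the 9 members, against 23.6% of all genes (4180 of 17716). *Cldn5* (log2 fold change -1.59, SE 0.27, adjusted p = 0.00531), *Cdh5* (-0.85, SE 0.28, adjusted p = 0.0446), *Slc2a1* (-0.71, adjusted p = 0.0384), *Tjp1* (-0.64, adjusted p = 0.0215) and *Abcb1a* (-0.57, adjusted p = 0.0265) were then lower in niacin nerves by this edgeR fit, 5 members against 13.7% of all genes called lower. *Ocln* (0.71, SE 0.18, adjusted p = 0.0159) and *Cldn1* (0.46, SE 0.16, adjusted p = 0.0477) were higher in the same edgeR fit, against 9.85% of all genes called higher. In this fit *Cldn5* and *Cldn1* thus differed in opposite directions, and *Pecam1* and *Kdr* were not called. The log2 fold change of *Cldn1* was 0.03 with all 12 libraries and -0.14 without 4503 (edgeR adjusted p = 0.870), the latter of the same sign as that of *Cldn5*. Without 4503, the library with *Mtmr2* at the WT level, no member was called, against 0.0746% of all genes, and the log2 fold change of *Cldn5* was -0.81 (edgeR adjusted p = 0.389). The 3 libraries that remain without 4502 include 4503, whose values for *Cldn5*, *Cdh5*, *Slc2a1*, *Tjp1* and *Abcb1a* were the highest of the KO libraries. With both 4502 and 4503 left out, 2 KO libraries remain, and edgeR called *Cldn5* (-1.23, adjusted p = 0.0140) and *Ocln* (0.68, adjusted p = 0.0471), against 12.5% of all genes. In that fit *Cldn1* was at 0.38 (edgeR adjusted p = 0.136) and *Tjp1* at -0.57 (adjusted p = 0.0604).

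The third comparison set niacin-treated KO nerves against WT control nerves. None of the 9 was called, nor was any other gene (0.0% of 17257), while 4254 genes had an unadjusted p under 0.05 by edgeR, and DESeq2 on all 12 libraries called 1070 genes, 7.56% of those it tested. By that edgeR fit 4 members had an unadjusted p under 0.05, against 24.7% of all genes, namely *Cldn5*, *Cdh5*, *Kdr* and *Tjp1*, each lower in niacin nerves. *Cldn5* had a log2 fold change of -1.26 (SE 0.42, edgeR adjusted p = 0.123), from 86.2 ± 12.4 CPM in WT control to 36.0 ± 12.9 CPM in niacin nerves. *Cdh5* had a log2 fold change of -1.20 (SE 0.37, edgeR adjusted p = 0.109), from 109 ± 10.7 to 47.1 ± 19.4 CPM. Both had separate groups and an exact permutation p of 0.0286, as had 16.6% of all genes tested in that direction. *Kdr* (-0.44, SE 0.15, edgeR adjusted p = 0.122) and *Tjp1* (-0.48, SE 0.18, adjusted p = 0.147) overlapped between the groups, as did the other 5 members. DESeq2 on all 12 libraries called *Cldn5* (adjusted p = 0.0314) and *Cdh5* (adjusted p = 0.0239), and without 4503 the same genes (adjusted p = 0.0354 and 0.00861), against 15.5% of all genes. In the fits of these 8 libraries alone, edgeR and DESeq2 each called *Cldn5*, *Tjp1*, *Cdh5*, *Pecam1* and *Kdr*, against 33.9% and 37.8% of all genes, and limma-voom on all 12 libraries called *Cldn5*, *Tjp1*, *Cdh5*, *Kdr* and *Abcb1a*, against 42.4%, and the same 5 without 4503, against 42.1%. In the 12-library fit the estimate of the spread includes the KO libraries, and without 4502 edgeR called *Cldn5*, *Cdh5*, *Kdr* and *Tjp1*, against 21.6% of all genes. Without 4503 it called no member, against 1.74%, and without both libraries it called *Cldn5*, *Cdh5*, *Kdr* and *Tjp1*, against 29.6%. Without niacin libraries 4506 and 4507, the log2 fold changes of *Cldn5* and *Cdh5* were larger, at -1.81 and -1.74, and not called (edgeR adjusted p = 0.236 and 0.225). Each pair of the 3 comparisons shares the 4 libraries of a group, so their values are not independent of one another.

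**Figure D2:**
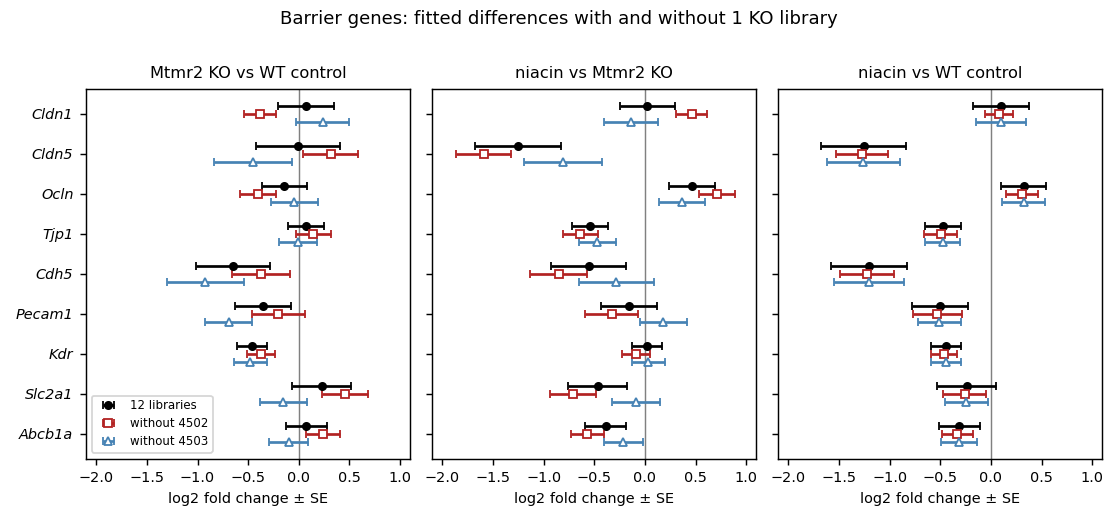
Fitted log2 fold changes with standard errors (x axes) of the 9 barrier genes (y axis) in the 3 comparisons, with all 12 libraries (circles), without KO library 4502 (squares) and without library 4503 (triangles). In niacin versus WT control the 3 fits nearly coincide, with *Cldn5* at -1.26 and *Cdh5* at -1.20, whereas in both comparisons with KO nerves they spread.

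GC content of the transcripts moved with these differences. The longest transcripts of *Cldn1* and *Ocln* have the lowest GC content of the 9 (39.0% and 42.0%) and that of *Cldn5* the highest (60.5%), with *Abcb1a* at 45.2%, *Tjp1* at 46.8%, *Kdr* at 49.4%, *Pecam1* at 50.2%, *Cdh5* at 52.2% and *Slc2a1* at 54.0%. In niacin versus WT control, GC content and log2 fold change had a Pearson's r of -0.81 across the 9 genes and -0.32 across 17142 genes, which all share the same 8 libraries. In niacin versus *Mtmr2* KO these values were -0.80 and -0.17, and in *Mtmr2* KO versus WT control -0.13 and -0.14. Without 4503, the values across the 9 genes were -0.81, -0.55 and -0.63 in the same order. The median log2 fold change in niacin versus WT control was 0.27 among genes with up to 42% GC and -0.39 among those above 60%, so *Cldn5* and *Cdh5* lay well below the medians of their classes. With each library corrected for GC content and transcript length, the log2 fold change in niacin versus WT control was -1.11 for *Cldn5* (edgeR adjusted p = 0.190), -1.07 for *Cdh5* (adjusted p = 0.151) and -0.30 for *Kdr* (adjusted p = 0.204), and 0.0% of genes were called. The values of *Cldn5* and *Cdh5* were thus nearly as large after the correction, and that of *Cldn1* turned from 0.10 to -0.11. With the correction and without 4502, edgeR called *Cldn5* (-1.46, adjusted p = 0.0111), *Tjp1* (-0.55, adjusted p = 0.0325) and *Abcb1a* (-0.59, adjusted p = 0.0343) in niacin versus *Mtmr2* KO, against 12.3% of all genes. *Cldn1* (0.25, adjusted p = 0.302) and *Ocln* (0.54, adjusted p = 0.0665) were then not called by edgeR. In niacin versus WT control this fit called *Cldn5* (adjusted p = 0.0288) and *Cdh5* (adjusted p = 0.0308), against 6.42% of all genes. With 4503 left out as well, the corrected fit called *Cldn5* in niacin versus *Mtmr2* KO (-1.11, edgeR adjusted p = 0.0232), against 4.03% of all genes, and no longer *Tjp1* (-0.51, adjusted p = 0.0855) or *Abcb1a* (-0.45, adjusted p = 0.117). It called *Cldn5* and *Cdh5* in niacin versus WT control (edgeR adjusted p = 0.0109 and 0.0158), against 2291 of 17652 genes.

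**Figure D3:**
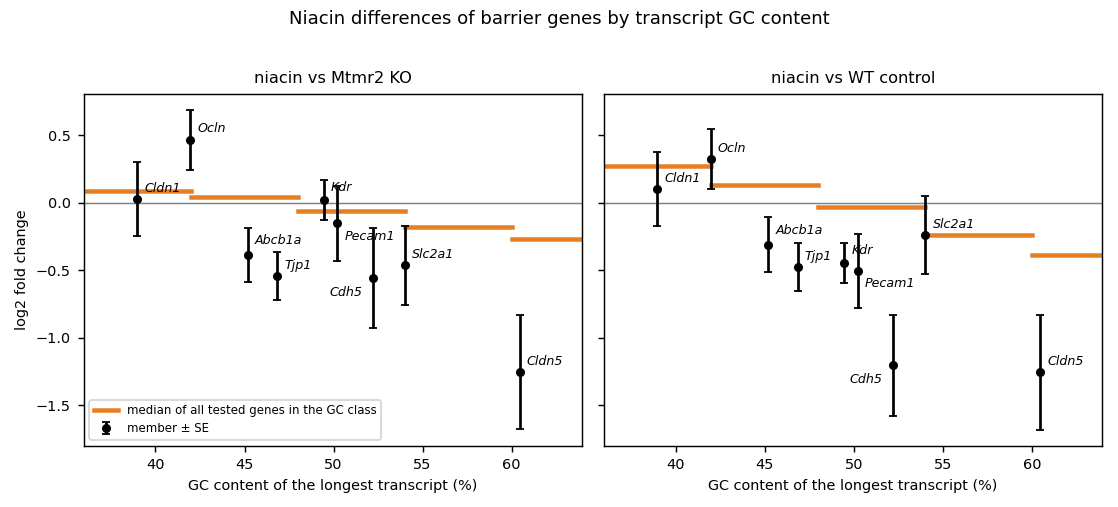
Log2 fold change with its standard error (y axis) against the GC content of the longest transcript in percent (x axis) for the 9 barrier genes, in niacin versus *Mtmr2* KO (left) and niacin versus WT control (right). Orange lines give the median of all tested genes in 5 classes of GC content, which falls from 0.27 to -0.39 at the right, and *Cldn5* and *Cdh5* lie below it.

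The members fell into sets that varied together across the libraries, also with group means removed. Values with group means removed pool the 3 groups. For *Cldn5* and *Cldn1* the spread was widest in KO nerves, with SDs of 54.8 and 132 CPM. It was 12.4 and 38.7 CPM in WT control and 12.9 and 22.6 CPM in niacin nerves. In WT control, library 4500 had the highest *Cldn5* and the lowest *Cdh5*. Correlations within single groups or without 4502 are not given here. Across the 12 libraries and 36 pairs of members, Pearson's r of log2 CPM had a median of 0.58, with 20 pairs above 0.5 and 7 below -0.5, and all 7 of the latter involved *Cldn1* or *Ocln*. *Slc2a1* and *Abcb1a* had r = 0.95 (0.96 with group means removed), *Cdh5* and *Kdr* 0.90 (0.88), *Cldn5* and *Cdh5* 0.89 (0.89) and *Cldn1* and *Ocln* 0.79 (0.87). *Cldn1* and *Cldn5* had r = -0.71 (-0.82). Without 4503 these pairs had 0.94 (0.96), 0.97 (0.94), 0.90 (0.85), 0.73 (0.86) and -0.63 (-0.76), with a median of 0.63 over all pairs, 19 above 0.5 and 5 below -0.5. These values are descriptions over 12 libraries that also differ in depth and GC trend. Among 11407 other tested genes with a mean of at least 5 CPM, the genes most like *Cldn1* included *Tmod3* (0.94) and *Fam107b* (0.92), with GC contents of 40.6% and 43.8%. The genes most like *Cldn5* were *Parvb* (0.98), *Fam210b* (0.97) and *Sh3glb2* (0.97), and those most like *Slc2a1* were *H2afy* (0.97), *Atg14* (0.97) and *Rab3a* (0.96). Without 4503 the r of these 8 genes with their members lay between 0.89 and 0.98.

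The 20 other endothelial genes gave the members a context. None was called by edgeR in any of the 3 comparisons. In niacin versus WT control 17 of 20 had a lower mean, against 8372 of 17257 of all genes. By edgeR 13 had an unadjusted p under 0.05, all lower, against 14.6% of all genes. Their median log2 fold change was -0.89 (-0.74 with the GC correction) against -0.44 for the 9 members and 0.02 for all genes. In *Mtmr2* KO versus WT control 18 of 20 had a lower mean, with a median of -0.40 against -0.01 for the members and 0.03 for all genes, of which 7930 of 17257 had a lower mean. Without 4503, 19 of 20 had a lower mean in KO nerves, with a median of -0.74, against 8416 of 17430 of all genes. In niacin versus WT control 17 of 20 then had a lower mean, with a median of -0.89, against 8437 of 17430. Their summed level was 935 to 987 CPM in WT control, 417 to 1117 CPM in *Mtmr2* KO (417 to 812 CPM without 4503) and 417 to 729 CPM in niacin nerves. The niacin values were thus all below the WT control values. In KO libraries 4501 to 4504 the sums were 812, 417, 1117 and 584 CPM, with 4502 the lowest. Medians of this list without 4502 are not given here. Per kilobase, *Ecscr*, which encodes an endothelial surface protein, was the highest of these genes in every group, with 65.7 CPM per kb in WT control nerves, 92.8 CPM per kb in KO nerves and 77.2 CPM per kb after niacin. Its difference went against the lower levels of most of the list, with log2 fold changes of 0.50 (edgeR adjusted p = 0.0996) in *Mtmr2* KO versus WT control (0.41 without 4503, adjusted p = 0.147) and 0.23 (adjusted p = 0.266) in niacin versus WT control. With the GC correction the latter was 0.0044. *Vwf*, the gene of von Willebrand factor, had the highest CPM of the list but a long transcript, and per kilobase it was at 18.6 CPM per kb in WT control nerves. It was at 178, 171, 163 and 146 CPM in WT control, 181, 67.7, 241 and 121 CPM in *Mtmr2* KO and 80.8, 118, 84.6 and 75.7 CPM in niacin nerves, with 4502 and 4503 again at the ends. Its log2 fold change in niacin versus WT control was -0.87 (SE 0.29, edgeR adjusted p = 0.123) and -0.45 with the GC correction.

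Without the GC correction, edgeR called genes of other barrier roles in small numbers, 1 or 2 per list of 8 to 13 genes over the comparisons. Of all genes, 0.267% were called in *Mtmr2* KO versus WT control and 1.43% in niacin versus *Mtmr2* KO. With the correction, edgeR called 2 and 3 of the 10 Wnt pathway genes in these comparisons. It called 2 and 1 of the 13 vessel growth genes, 0 and 1 of the 12 hedgehog genes and no mural marker, against 203 and 465 of all genes. Among the 10 genes of the Wnt pathway that induces barrier properties in brain endothelium, *Fzd4*, the receptor of norrin, fell in *Mtmr2* KO versus WT control and *Tspan12*, its co-receptor, rose in niacin versus *Mtmr2* KO. *Fzd4* was at 55.7, 70.8, 59.9 and 56.6 CPM in WT control, 33.4, 16.2, 35.4 and 28.5 CPM in *Mtmr2* KO and 44.0, 54.9, 52.5 and 46.7 CPM in niacin nerves, so that no KO library reached any other library. Its log2 fold change was -1.10 (SE 0.20, edgeR adjusted p = 0.0448) in *Mtmr2* KO versus WT control and 0.80 (SE 0.20, adjusted p = 0.0608) in niacin versus *Mtmr2* KO, 2 values that share the KO libraries. *Tspan12* was at 25.8, 28.7, 24.5 and 28.9 CPM in WT control, 17.1, 17.8, 12.1 and 9.77 CPM in *Mtmr2* KO and 18.9, 23.4, 33.1 and 32.4 CPM in niacin nerves. It too was lowest in the KO libraries, without overlap. Of 17257 genes tested, 943 were lower without overlap in *Mtmr2* KO versus WT control and 622 higher in niacin versus *Mtmr2* KO. *Fzd4* and *Tspan12* are named because they were called in these libraries, so their separation is not independent of the calls. The same holds for *Angpt1*, *Gas1* and *Anpep*, described below. The log2 fold change of *Tspan12* was -0.93 (SE 0.21, edgeR adjusted p = 0.0711) and 0.92 (SE 0.21, adjusted p = 0.0482) in these comparisons. The call of *Fzd4* held without 4502 (-0.91, edgeR adjusted p = 0.0130) but not without 4503 (-1.22, adjusted p = 0.0633), where the value was larger, or without 4506 and 4507 (-1.11, adjusted p = 0.0730). That of *Tspan12* held without 4502 (1.03, edgeR adjusted p = 0.00740) but not without 4503 (0.85, adjusted p = 0.120) or without 4506 and 4507 (0.84, adjusted p = 0.284). The genes of the list with the highest level, by CPM and per kilobase, *Ctnnb1* (beta-catenin) and *Adgra2*, were not called, with log2 fold changes of -0.22 and -0.44 in *Mtmr2* KO versus WT control.

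Of the 13 vessel growth genes, *Angpt1*, the ligand of the endothelial receptor TIE2, rose in niacin versus *Mtmr2* KO. It was at 7.71, 11.4, 8.28 and 10.8 CPM in WT control, 4.84, 9.28, 3.04 and 5.96 CPM in *Mtmr2* KO and 11.9, 12.1, 17.6 and 13.2 CPM in niacin nerves. All niacin libraries were above all other libraries, and 622 of 17257 genes were separate from KO nerves in that direction. The log2 fold change was 1.25 (SE 0.28, edgeR adjusted p = 0.0458), 1.56 without 4502 (adjusted p = 0.00458), 1.03 without 4503 (adjusted p = 0.101) and 1.11 without 4506 and 4507 (adjusted p = 0.284). The VEGF co-receptors *Nrp1* and *Nrp2*, which had the highest CPM of that list, were not called. Of the 12 hedgehog pathway genes, through which Schwann cells direct the building of the perineurium, *Gas1*, a hedgehog co-receptor, fell in *Mtmr2* KO versus WT control. It was at 66.2, 78.5, 66.9 and 55.8 CPM in WT control, 31.6, 25.8, 17.9 and 44.4 CPM in *Mtmr2* KO and 50.3, 49.3, 52.8 and 64.5 CPM in niacin nerves. The KO libraries were again below all others, and against WT control this held for 943 of 17257 genes. The log2 fold change was -1.16 (SE 0.22, edgeR adjusted p = 0.0497), and without 4502 or 4503 it was not called (-1.10 and -0.98, adjusted p = 0.0647 and 0.0807). Nor was it called by edgeR with the GC correction (-0.96, adjusted p = 0.0591) or without 4506 and 4507 (-1.18, adjusted p = 0.0798). The ligand *Dhh* and its receptor *Ptch1*, which had the highest CPM of that list, had log2 fold changes of -0.60 and -0.83 in niacin versus WT control (edgeR adjusted p = 0.225 and 0.0833). Per kilobase, *Smo*, the signal transducer of the pathway, was above *Ptch1*, at 53.1 against 28.5 CPM per kb in WT control nerves. Among the 8 mural cell markers, *Anpep* fell in *Mtmr2* KO versus WT control (-0.95, SE 0.18, edgeR adjusted p = 0.0497), at 30.3 to 36.0 CPM in WT control against 10.6 to 22.4 CPM in KO nerves. It held without 4502 (-0.99, edgeR adjusted p = 0.0487) and not without 4503 (-0.77, adjusted p = 0.0633), with the GC correction (-0.83, adjusted p = 0.0557) or without 4506 and 4507 (-0.96, adjusted p = 0.0808). *Rgs5* and *Pdgfrb*, the mural markers with the highest level by CPM and per kilobase, were not called. Without 4503, edgeR called 3 genes of these lists in niacin versus WT control, against 1.74% of all genes, namely *Lrp5* (-1.27, adjusted p = 0.0497), *Ptch1* (-0.83, adjusted p = 0.0497) and *Anpep* (-0.57, adjusted p = 0.0497), each lower in niacin nerves. By edgeR the calls of *Fzd4*, *Tspan12*, *Angpt1*, *Gas1* and *Anpep* with all 12 libraries lay close to the threshold. DESeq2 on all 12 libraries gave these genes adjusted p of 0.000137, 0.00215, 0.000769, 0.000212 and 0.000388. It called 3.77% of all genes in *Mtmr2* KO versus WT control and 6.42% in niacin versus *Mtmr2* KO. With the GC correction edgeR still called *Fzd4* (-1.06, adjusted p = 0.0300), *Tspan12* (0.74, adjusted p = 0.0414) and *Angpt1* (1.18, adjusted p = 0.0248). Of the 12 edgeR fits that each leave out 1 library, 4 called *Fzd4* (without 4501, 4502, 4504 or 4505), 2 *Tspan12* (4502 or 4505), 1 *Angpt1* (4502), 2 *Gas1* (4501 or 4504) and 3 *Anpep* (4501, 4502 or 4504). Each difference kept its sign, at -1.22 to -0.91 for *Fzd4*, 0.78 to 1.06 for *Tspan12*, 1.03 to 1.56 for *Angpt1*, -1.42 to -0.98 for *Gas1* and -1.10 to -0.77 for *Anpep*, and the largest edgeR adjusted p were 0.152, 0.178, 0.166, 0.153 and 0.153.

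**Figure D4:**
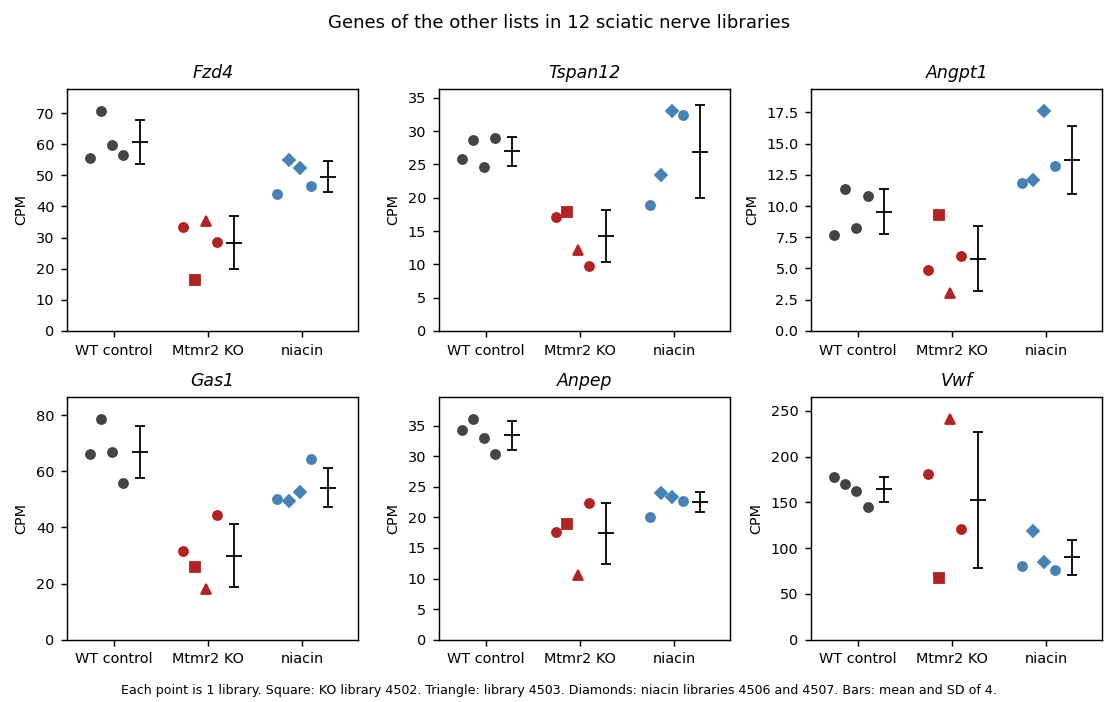
CPM in each of the 12 libraries (y axes, linear, from 0) by group (x axes), with the mean and SD of 4 libraries as bars. Genes shown are the endothelial gene *Vwf* and 5 genes of the barrier induction, vessel growth, hedgehog and mural cell lists. These 5 were called by edgeR with all 12 libraries and no GC correction. *Fzd4*, *Tspan12* and *Gas1* are lowest in the 4 KO libraries, at 35.4, 17.8 and 44.4 CPM or less, whereas *Vwf* varies among them as *Cldn5* does.

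In the edgeR fit of all 12 libraries without the GC correction, no gene was called among the other tight junction, transport and perineurial genes. With the correction, edgeR called 1 tight junction, 2 transport and 1 perineurial gene in niacin versus *Mtmr2* KO, against 465 of 17142 genes. Of the 19 other tight junction genes, 18 were tested, and 13 of these had a lower mean in niacin versus *Mtmr2* KO nerves, 7 of them with an unadjusted p under 0.05, with a median of -0.36. Of all genes, 9333 of 17257 had a lower mean and 12.1% were lower at an unadjusted p under 0.05, with a median of -0.04. Without 4503, 13 of 18 had a lower mean, with a median of -0.21, against 9574 of 17430 of all genes. *Jam3* and *Cldn19*, the latter a claudin of myelinating Schwann cells, had the highest levels by CPM and per kilobase, with log2 fold changes of -0.43 and -0.56 in that comparison (edgeR adjusted p = 0.129 and 0.190). Of the 13 other transport genes, 11 had a higher mean in *Mtmr2* KO than in WT control nerves, with a median of 0.29. Of all genes, 9327 of 17257 had a higher mean, with a median of 0.03. Without 4503, 8 of the 13 had a higher mean, with a median of 0.14, against 9014 of 17430 of all genes. The highest CPM were those of *Slc3a2*, the heavy chain of an amino acid transporter (0.32, edgeR adjusted p = 0.581), and *Slc16a1*, a lactate transporter (-0.47, adjusted p = 0.127). Per kilobase, *Mfsd2a*, a lipid transporter of barrier endothelium (0.29, edgeR adjusted p = 0.410), was above *Slc16a1*, at 45.8 against 36.8 CPM per kb in WT control nerves. In niacin versus *Mtmr2* KO, 5 of the 7 other perineurial genes had a higher mean, against 7924 of 17257 of all genes. Their median was 0.41, and 0.28 without 4503. At an unadjusted p under 0.05 by edgeR, 4 were higher and 1 lower, against 1383 and 2089 of all genes. In niacin versus WT control the 7 went both ways, 4 with a higher and 3 with a lower mean, against 8885 and 8372 of all genes. Those with the highest CPM were *Itgb4* (-0.86, edgeR adjusted p = 0.0847) and *Mpzl2* (0.35, adjusted p = 0.201). Per kilobase, *Perp* (-0.09, edgeR adjusted p = 0.642) was the next after *Itgb4*, at 24.0 against 12.5 CPM per kb for *Mpzl2* in WT control nerves. Without 4503, edgeR called 1 perineurial gene, *Lypd2*, higher in niacin versus WT control (0.79, adjusted p = 0.0497).

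Markers of other cells moved between libraries too, and their part in these results was not tested. Of 8 adipocyte markers, *Plin1* (log2 fold change -1.84, edgeR adjusted p = 0.0448) and *Lep* (-2.03, adjusted p = 0.0364) fell in *Mtmr2* KO versus WT control, and *Lep* rose in niacin versus *Mtmr2* KO (1.84, adjusted p = 0.0383). Without 4503 none of these was called by edgeR (-1.90, -1.89 and 1.70, adjusted p = 0.0834, 0.0633 and 0.0686), and without 4506 and 4507 only the fall of *Lep* was (adjusted p = 0.0689, 0.0285 and 0.276). Their summed level was 2275 to 2906 CPM in WT control, 576 to 3602 CPM in *Mtmr2* KO and 1737 to 3322 CPM in niacin nerves. With 1 library left out, 4 of 12 fits called *Plin1*, and 5 called *Lep* in each of these comparisons. Of 6 skeletal muscle markers, *Acta1*, *Ckm*, *Mylpf* and *Tnnt3* rose in niacin versus *Mtmr2* KO by edgeR, and none of these calls held without 4506 and 4507 (adjusted p = 0.326 to 0.442) or without 4503 (adjusted p = 0.104 to 0.107). The summed muscle level was 30.6 to 70.8 CPM in WT control, 25.2 to 60.4 CPM in *Mtmr2* KO and 72.1 to 3034 CPM in niacin nerves. Without 4506 and 4507 no member was called in any comparison, as with all 12. No gene of the lymphatic endothelial (6 tested), red blood cell (5) and skin epithelial (3 tested) markers was called by edgeR. Lymphatic markers summed to 460 to 618, 356 to 705 and 304 to 392 CPM in the 3 groups, red blood cell markers to 292 to 1082, 189 to 810 and 238 to 1053 CPM, and skin markers to at most 15.3 CPM. In niacin versus WT control edgeR called no gene at all (0.0% of 17257), so the lack of a call there does not show that a marker was unchanged. The genes with the highest CPM in the marker lists, not scaled to length, had log2 fold changes in that comparison of 0.10 for *Pmp22*, -0.70 for *Reln*, 0.13 for *Lyve1*, -0.17 for *Hbb-bs*, -0.13 for *Hba-a1*, -0.29 for *Krt10*, -0.05 for *Trp63*, 0.24 for *Cfd*, -0.95 for *Plin4*, 5.42 for *Myh4* and 5.10 for *Tnnt3* (edgeR adjusted p from 0.0833 to 0.941).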

How the data were processed

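RNA was purified from 1 sciatic nerve per mouse, polyA selected and sequenced as paired reads. Reads were aligned by the authors with STAR (GRCm38), who deposited raw counts per Ensembl gene. For the STAR version, counting program, annotation release and strand setting, the sources used here say nothing. The tables of the authors' own DESeq2 comparisons, which hold log2 fold changes and p-values, served only to pair identifiers with symbols. Counts were fitted in R 4.3.3 with edgeR 4.0.16 (filterByExpr by group, TMM, quasi-likelihood, all 12 libraries, no covariates), two-sided, with Benjamini-Hochberg adjustment over 17257 genes and calls at an adjusted p under 0.05. Log2 CPM used a prior count of 2. Exact permutation tests were two-sided over the 70 arrangements of 8 libraries as 4 and 4. SE is the log2 fold change divided by the square root of F. Gene coordinates, GC content (known for 99.3% of tested genes) and lengths came from GENCODE M21. DESeq2 1.42.0 and limma 3.58.1 gave alternatives. The fits were tested on simulated counts. The correction for GC content and length (natural splines with 5 degrees of freedom), the fit without 4506 and 4507, that without 4502 with the correction, and those without 4503 with other tools or without both 4502 and 4503 were chosen after seeing the data. The members and the 14 other lists were chosen with earlier results of these data known. Beyond the members, the genes named were those called in a list, the 2 of a list with the highest mean CPM (not scaled to length) and the 3 most like *Cldn1*, *Cldn5* and *Slc2a1*, and *Smo*, *Mfsd2a*, *Perp*, *Lrp5* and *Lypd2* were added after their values were seen. Some genes under this rule, and the summed Schwann cell markers, are not reported here.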

Additional observations from a re-analysis of the deposited data

Results flagged for a closer look

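Of 27 sets of 4 libraries (9 members in 3 groups) examined for a library far from the others of its group, 1 was marked, and chance marks about 1 in 20. *Tjp1* was at 211 CPM in WT control library 4500, against 298 to 310 CPM in the other 3 WT control libraries, so that the gap took up 0.88 of the range of the group. Without this library the log2 fold change of *Tjp1* in niacin versus WT control was -0.60, against -0.48 with it, and it was not called either way.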

How the results depend on the processing

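No paired analysis was possible because the replicate numbers of the labels differ between the groups. Of 405 log2 fold changes of members under the other alternatives, 330 kept their direction and side of the threshold, 45 passed the threshold only under the alternative and 30 changed sign, and of 324 with 1 library left out these counts were 295, 11 and 18. The cause of these shifts was not tested. With 4 libraries per group and the spread of the KO libraries, small differences were not detectable. In *Mtmr2* KO versus WT control, members were called under only 1 of the alternatives, 3 with limma-voom without 4503.

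In niacin versus *Mtmr2* KO the members called were 1 with DESeq2 on all 12 libraries, 1 with limma-voom, 3 without 4502 with the GC and length correction, 2 with limma-voom without 4503, 2 without 4502 and 4503, 1 without both with the correction, and 0 to 7 with 1 library left out, where only leaving out 4502 gave any. In niacin versus WT control they were 2 with DESeq2 on all 12 libraries, 5 with DESeq2 on the 2 groups, 5 with limma-voom, 5 with edgeR on the 2 groups, 2 without 4502 with the correction, 2 with DESeq2 without 4503, 5 with limma-voom without 4503, 4 without 4502 and 4503, 2 without both with the correction and 0 to 4 with 1 library left out, again above 0 only without 4502.

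All genes called in *Mtmr2* KO versus WT control, 46 in the report, were 683 with DESeq2 on all 12 libraries, 427 with DESeq2 on the 2 groups, 108 with limma-voom, 0 with edgeR on the 2 groups, 341 with no filter, 12 with *Xist* as a covariate, 203 with the GC and length correction, 6 without 4506 and 4507, 108 without 4502 with the correction, 767 with DESeq2 without 4503, 1040 with limma-voom without 4503, 11 without 4502 and 4503, 24 without both with the correction, and 0 to 457 with 1 library left out. In niacin versus *Mtmr2* KO, 246 in the report, they were 1078, 444, 2007, 0, 573, 50, 465, 0, 2166, 496, 2192, 2223 and 711 in the same order, and 0 to 4180 with 1 library left out. In niacin versus WT control, 0 in the report, they were 1070 with DESeq2 on all 12 libraries, 5791 with DESeq2 on the 2 groups, 7311 with limma-voom, 5586 with edgeR on the 2 groups, 311 with no filter, 1130 without 4502 with the correction, 2175 with DESeq2 without 4503, 7338 with limma-voom without 4503, 5263 without 4502 and 4503, 2291 without both with the correction, and 0 to 3826 with 1 library left out, 304 of them without 4503.

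Members whose log2 fold change changed sign were not called in either direction. In *Mtmr2* KO versus WT control, *Cldn1* (0.07) was -0.31 with limma-voom, -0.021 with no filter, -0.053 with *Xist* as a covariate, -0.093 with the GC and length correction, -0.35 without 4502 with the correction, -0.39 with limma-voom without 4503, -0.28 without 4502 and 4503 with or without the correction and -0.38 to 0.23 with 1 library left out. There *Cldn5* (-0.01) was 0.0044 with DESeq2's size factors, 0.018 with at least 10 counts in every library, 0.033 with the correction, 0.34 without 4502 with the correction and -0.45 to 0.31 with 1 library left out, when *Slc2a1* was -0.15 to 0.45, *Tjp1* -0.052 to 0.14 and *Abcb1a* -0.10 to 0.24. With DESeq2 without 4503, *Slc2a1* was -0.16, *Tjp1* -0.022 and *Abcb1a* -0.11, and with limma-voom without 4503 *Tjp1* was -0.093. In niacin versus *Mtmr2* KO, *Cldn1* (0.03) was -0.015 with the correction, -0.12 with DESeq2 without 4503 and -0.14 to 0.46 with 1 library left out (its call without 4502 kept the sign), *Pecam1* (-0.15) was 0.22 with limma-voom, 0.18 with DESeq2 without 4503, 0.57 with limma-voom without 4503, 0.055 without 4502 and 4503, 0.077 without both with the correction and -0.33 to 0.18 with 1 library left out, and *Kdr* (0.02) was -0.028 with limma-voom, -0.0013 with limma-voom without 4503, -0.10 without 4502 and 4503, -0.19 without 4506 and 4507 and -0.11 to 0.12 with 1 library left out. In niacin versus WT control, *Cldn1* (0.10) was -0.11 with the correction and -0.10 without 4502 with the correction and -0.11 without 4502 and 4503 with the correction.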
